A study of Mus musculus with 2 samples.

Results

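Ly6C-low patrolling monocytes were read from single-cell RNA sequencing of mouse bone marrow as 137 cell barcodes among the 33691 barcodes kept, 79 of 19764 in the control library and 58 of 13927 in the double knockout (DKO) library. A barcode was kept with at least 500 UMIs (unique molecular identifiers, each standing for 1 captured transcript) and at most 20% of them from mitochondrial genes. Members were then selected on transcripts: hemoglobin genes under 20% of UMIs, and at least 3 UMIs from at least 2 of the genes Nr4a1, Ace, Adgre4 and Treml4. Limits were set against other cell types: F13a1 under 2 UMIs, C1qa, C1qb and C1qc together under 5, Cd79a and Cd79b together under 2, Siglech at 0, and the neutrophil genes S100a8, S100a9, Camp, Ngp and Ltf together under 5% of UMIs. T cells, NK cells and conventional dendritic cells had no limit. The limits did not keep all other types out, since 9 members of each library held 5 or more UMIs of another type's genes. These genes chose the cells, so their levels describe the choice and support nothing.

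The study profiled femoral marrow of mice 2 months old, 1 library per genotype, with the droplet method Chromium 3' v3. The control, given as WT by its label, is described by the study as a Ddx41fl/fl littermate that carries no VavCre. The DKO genotype carries VavCre:Ddx41fl/fl and lacks cGAS in the germline. VavCre removes the floxed Ddx41 segment in hematopoietic cells. Ddx41 is a DEAD-box RNA helicase that is recurrently mutated in myeloid neoplasms, and cGAS is a cytosolic DNA sensor that signals through STING, so the pair asks what blood cells look like when both are missing. A genotype without Ddx41 alone and one without cGAS alone are not among the libraries, so the parts of the 2 deletions cannot be told apart. With 1 library per genotype no difference between genotypes has a replicate check, and every interval given is a 95% interval that covers counting error only. The control matrix lists every barcode, 1194299 of them with a UMI, and the DKO matrix only called cells, none of them under 500 UMIs, so for shares of barcodes the way of listing and the genotype cannot be told apart.

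Mouse blood holds a pair of main monocyte classes. Ly6C-high, or classical, monocytes express Ccr2, leave the marrow and enter inflamed tissue, where they can become macrophages. Ly6C-low monocytes arise mostly from them, depend on the orphan nuclear receptor Nr4a1 and on the enhancer-binding factor Cebpb, crawl along the inner wall of small vessels with the integrin LFA-1 and the chemokine receptor Cx3cr1, and clear debris from the endothelium.

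The control members hold 309496 UMIs in all, with a median of 3457 per barcode (lowest 1628, highest 10471) and 1696 genes. The DKO members hold 279689 UMIs, with a median of 4516.5 (lowest 1471, highest 10636) and 2032 genes. Depth was therefore higher in the DKO library, as it was in the Ly6C-high monocytes, where the medians were 8837 in 961 control and 11099 in 494 DKO barcodes. Mitochondrial genes took a median of 1.5% of UMIs in control members and 1.54% in DKO members. Of all barcodes kept, the members made up 0.40% in the control (0.317% to 0.498%, exact Clopper-Pearson) and 0.416% in the DKO library (0.316% to 0.538%). Of the barcodes under the hemoglobin limit they made up 0.682% (0.540% to 0.849%) and 0.739% (0.562% to 0.954%). As a share of both monocyte classes they were 7.60% of 1040 control barcodes (6.06% to 9.38%) and 10.5% of 552 DKO barcodes (8.08% to 13.4%). The intervals of the libraries overlap for all 3 shares. When barcodes were thinned at random to 2000 UMIs before the rule was applied, and those with fewer left out (15881 control and 12263 DKO barcodes remained), the shares of monocytes were 6.13% of 799 and 9.03% of 454.

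The choice of cells turns on few molecules. Control members carry a median of 7 UMIs of the 4 marker genes (highest 22) and DKO members 8.5 (highest 26). Just inside the threshold stand 12 control and 7 DKO members with exactly 3 marker UMIs. Just outside stand 5 control and 11 DKO barcodes with 2 UMIs from 2 of the genes, and 11 and 15 with at least 3 UMIs that all come from 1 gene. All 4 marker genes were seen in 23 control and 21 DKO members, 3 of them in 29 and 18, and 2 in 27 and 19. The F13a1 limit alone turned away 29 control and 27 DKO barcodes that met every other condition, 5 and 3 of them with 2 UMIs. The C1q limit alone turned away 10 and 6, and the neutrophil limit 5 and 9. The libraries share 80 of the barcodes kept, none of them (0) a member. Doublets were scored with Scrublet, and the members include 1 control and 2 DKO barcodes among the top 5% of scores; they stay in the values given.

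Levels are counts-per-million (CPM), UMIs of a gene out of all UMIs of a library's members. They count 3' ends, 1 tag per transcript, and are not divided by transcript length. Ratios are log2 ratios of these levels with 1 UMI added to each count. Between the libraries this understates the change of genes with few UMIs. Over Ly6C-high monocytes, which hold many more UMIs, it raises the ratio of a gene with fewer UMIs in the members. Where the members have more UMIs of the gene, it lowers that ratio. Ly6C-high monocytes, the nearest class, were chosen by at least 2 F13a1 UMIs, at least 3 UMIs of Ly6c2 and Ccr2 together, under 3 UMIs of the 4 marker genes, the same limits for other cell types, and Mpo, Elane, Prtn3 and Ctsg together under 1% of UMIs. Since transcripts chose both classes, the contrast between them is descriptive.

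Adgre4, an adhesion G protein-coupled receptor of myeloid cells encoded at chr17:55749984-55853662 (plus strand, GRCm38), was the most abundant of the 4 rule genes by UMIs, with 286 UMIs in each library, or 924 CPM (exact Poisson interval 820.1 to 1038) in the control and 1023 (907 to 1148) in the DKO library. Nr4a1, at chr15:101254269-101274795 on the plus strand, had 125 and 108 UMIs, or 404 CPM (336 to 481) and 386 (317 to 466). Ace, the angiotensin-converting enzyme at chr11:105967945-105989964, had 112 and 101 UMIs, or 362 CPM (298 to 435) and 361 (294 to 439). Treml4, a receptor that binds dying cells, at chr17:48264295-48275360, had 85 and 70 UMIs, or 275 CPM (219 to 339.6) and 250.3 (195 to 316). All 4 intervals overlap between the libraries, and the DKO over control ratios lie between −0.13 and 0.15. In Ly6C-high monocytes Nr4a1 stood at 7.79 and 7.49 CPM, Ace at 0.620 and 1.52, Adgre4 at 9.29 and 13.7 and Treml4 at 1.77 and 1.39.

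The label was checked against genes that the rule did not use. With barcodes thinned to 2000 UMIs (6 control and 2 DKO members with fewer were left out), Cx3cr1, the fractalkine receptor, was seen in 57.5% of control and 60.7% of DKO members, against 17.6% and 24.6% of Ly6C-high monocytes. In B cells, which should lack it, it was seen in 0.536% and 0.286%; their median depths before thinning were 2772 and 3873 UMIs, against 3457 and 4516.5 in the members. Unthinned, Cx3cr1 was seen in 74.7% and 75.9% of members. Gngt2, a G protein gamma subunit, was seen in 84.9% and 83.9% of thinned members, against 18.3% and 13.4% of Ly6C-high monocytes and 14.3% and 12.9% of B cells. Ear2, an eosinophil-type ribonuclease, was seen in 46.6% and 57.1%, against 0.298% of control B cells and 0 of DKO B cells. The class is named for a low level of the Ly6C antigen, and Ly6c2, which encodes it, was seen in 15.1% of control and 1.79% of DKO members and in 88.9% and 81.3% of Ly6C-high monocytes, which Ly6c2 helped to choose, so their share is no check. In B cells it was seen in 5.72% and 2.86%. The control share of members is 11 of 73 barcodes, with an interval of 7.77% to 25.4% that lies above the control B cell share. The DKO share of members is 1 of 56 barcodes, with an interval of 0.0452% to 9.55% that includes the DKO B cell share. Unthinned, Ly6c2 was seen in 16.5% and 10.3% of members and in 8.18% and 4.83% of B cells.

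Of 4724 genes with at least 20 UMIs summed over the members of both libraries (12064 had any), 599 (12.7%) were at least 2-fold higher than in Ly6C-high monocytes in both libraries and 160 (3.39%) at least 2-fold lower. Since the minimum is set in the members, genes near 0 there cannot be counted as lower, and the counts of higher and lower genes cannot be compared. Of the list of 32 patrolling genes outside the rule, 30 passed this minimum and 28 of the 30 were at least 2-fold higher in both libraries. Their median ratio over Ly6C-high monocytes was 3.38 for control and 3.69 for DKO members, against 0.22 and 0.21 over all genes tested. The list had been compiled for these cells, so this describes how the label fits and is no test of it.

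**Figure D1:**
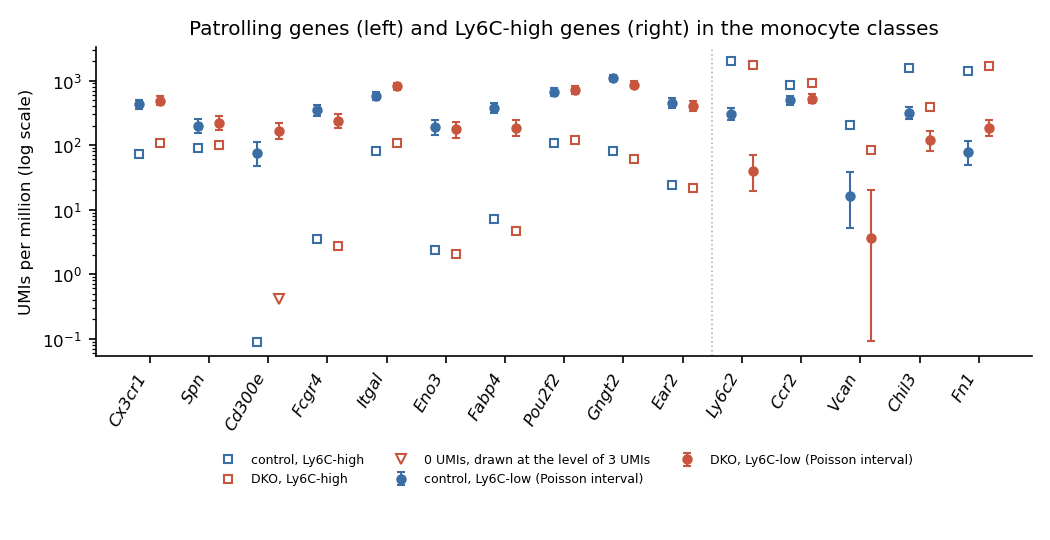
Levels in counts-per-million (CPM, UMIs; log axis) of 10 patrolling genes and 5 genes of Ly6C-high monocytes, with Ly6C-low members as filled circles with exact Poisson 95% intervals and Ly6C-high monocytes as open squares, control in blue and DKO in red; the open triangle stands for 0 UMIs and is drawn at the level of 3 UMIs. Each patrolling gene stands higher in the members in both libraries, and each Ly6C-high gene drawn stands lower (Ly6c2 and Ccr2 helped to choose that class), with the smallest gap for Ccr2 (491 and 522 against 862 and 931). The 5 drawn are part of a list of 23 that does not go 1 way. Of its 16 genes tested, 5 were at least 2-fold lower in both libraries and 1, Sirpb1c, higher. Lyz1 of that list stood higher in the control (log2 ratio 6.17).

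The 15 largest ratios over Ly6C-high monocytes, among genes of at least 100 CPM in either class in both libraries, were those of the 4 rule genes and of the 11 described next. Fcgr4, the activating receptor for IgG2, stood at 349 CPM in control and 236 in DKO members, against 3.45 and 2.77 in Ly6C-high monocytes (ratios 6.64 and 6.36). Eno3, an enolase best known from muscle, stood at 191 and 175 CPM against 2.39 and 2.08 (6.29 and 6.33). Pparg, the fatty acid-sensing nuclear receptor, stood at 268 and 411 CPM against 3.98 and 6.65 (6.06 and 5.93). Fabp4, a fatty acid carrier often found under the control of Pparg, stood at 381 and 186 CPM against 7.08 and 4.57 (5.74 and 5.33). In control barcodes with at most 100 UMIs, which hold free RNA, Fabp4 stood at 232 CPM. Dusp5, a nuclear phosphatase of ERK, stood at 109.9 and 193 CPM against 2.74 and 2.36 (5.32 and 6.30). Dusp16, a phosphatase of JNK and p38, stood at 258 and 476 CPM against 3.01 and 8.32 (6.40 and 5.82). Tcf7l2, a transcription factor of the Wnt pathway, had ratios of 5.59 and 6.12, and Bcl2a1b, an anti-apoptotic gene of the Bcl2 family, 5.95 and 6.24. Setbp1 had 6.13 and 6.45, Slc12a2, a sodium, potassium and chloride cotransporter, 6.11 and 5.64, and Tgfbr3, a coreceptor of TGF-beta, 5.50 and 6.75. Their ratios and a level in both libraries chose these genes, so their high levels in the members describe the choice.

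The 10 smallest ratios follow. F13a1, which the rule limits, had ratios of −5.41 and −6.33. Top2a, the topoisomerase of chromosome condensation, had 2 UMIs in each library's members, or 6.46 and 7.15 CPM, against 491 and 471 in Ly6C-high monocytes (−5.66, interval −9.29 to −4.39, and −5.46, −9.09 to −4.19). Tpx2 and Spc24, genes of the mitotic spindle and kinetochore, had 0 UMIs in the members of both libraries, while Ly6C-high monocytes had 145 and 133 CPM of Tpx2. Of Prtn3, a granule protease of myeloid precursors, the members had 7 and 4 UMIs, or 22.6 and 14.3 CPM, against 840.0 and 643. Stmn1, Ctsg, Pclaf, Gria3 and Hist1h2ap complete the 10 smallest ratios. Against 3.39% of all genes tested, all 5 tested of the cell cycle list were at least 2-fold below Ly6C-high monocytes in both libraries. The most abundant of them by UMIs, H2afz, stood at 611 and 586 CPM against 3096 and 2571. Mki67, named after its values were seen, was found in 2.74% of control and 3.57% of DKO members after thinning, against 33% and 30.9% of Ly6C-high monocytes; B cells had 14.7% and 13.8%. Of the 3 classes the members had the smallest share of cells with Mki67.

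Nr4a1 is the factor these cells are known to require, and its promoter is shown since the gene is 1 of the 4 that chose the members. The sequence is the 250 bases before the gene's start in RefSeq, chr15:101266596-101266845 on the plus strand of GRCm38.p6. RefSeq and GENCODE start the gene at different places, and the sequence lies inside the GENCODE span given above. Capitals mark TGCGTCA, searched on both strands (reverse complement TGACGCA) and chosen after the sequence had been seen. The string occurs 4 times. Of 32851 promoters of that length 1.75% hold at least 1 copy, and 1 promoter, that of Nr4a1, holds as many as 4. Of the 25 patrolling genes with a RefSeq promoter 1 holds it (Cebpb), and of 29 immediate response genes 2 do (Fosb and Btg1). A match describes letters and shows no binding.
Nr4a1: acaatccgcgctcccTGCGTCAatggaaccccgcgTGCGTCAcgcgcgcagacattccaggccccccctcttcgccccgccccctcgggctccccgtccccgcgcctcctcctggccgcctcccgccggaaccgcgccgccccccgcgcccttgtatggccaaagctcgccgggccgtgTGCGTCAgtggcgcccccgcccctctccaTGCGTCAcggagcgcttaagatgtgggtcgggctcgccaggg

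Adhesion and crawling genes are given next. Itgal, the alpha chain of LFA-1, stood at 572 CPM (491 to 663) in control and 819 (716 to 932) in DKO members, against 80.5 and 109 in Ly6C-high monocytes. Spn, the sialomucin CD43 used to sort these cells, had 62 UMIs in each library, or 200.3 and 222 CPM against 90.1 and 100.5, a gap of about 2-fold. Itga4, a chain of the receptor for VCAM-1, stood at 805 and 1048 CPM against 219 and 329. The 3 most abundant genes of the adhesion list by UMIs were Coro1a, Rap1b and Itga4; Coro1a, an actin-binding coronin, was nearly level between the classes, at 1406 and 1309 CPM against 1268 and 1257. Rap1b, a small GTPase that activates integrins, stood at 1002 and 1205 CPM against 307 and 329. Of the 20 adhesion genes tested 8 were at least 2-fold above Ly6C-high monocytes in both libraries and 1 below. Over all genes tested the shares were 12.7% above and 3.39% below.

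Among transcription factors, 9 of 24 tested were at least 2-fold above Ly6C-high monocytes in both libraries and 1 below. All genes tested had 12.7% above and 3.39% below. Zeb2, a zinc finger factor of myeloid cell maturation, had the most UMIs, with 1842 and 2449 CPM, and was seen in 79 of 79 control and 55 of 58 DKO members. Cebpb stood at 1499 CPM (1366 to 1642) in control and 2235 (2063 to 2417) in DKO members, against 704 and 843 in Ly6C-high monocytes. Klf2, a factor of quiescent circulating leukocytes, stood at 814 and 790.2 CPM against 177 and 151. Pou2f2, an octamer-binding factor first described in B cells, stood at 666 and 712 CPM against 106 and 122; B cells had 211 and 242. These factors had their higher level in the members in both libraries, and Zeb2 by the smallest margin, with ratios of 0.20 and 0.47.

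Among receptors for growth factors and chemokines, Csf1r, the receptor for M-CSF on which their survival depends, stood at 520.2 CPM (443 to 607) in control and 497 (418 to 587) in DKO members, against 121 and 169 in Ly6C-high monocytes. Cx3cr1 had 132 and 137 UMIs, or 426 CPM (357 to 506) and 489.8 (411 to 579), against 71.9 and 109.5. Ifngr1, a chain of the interferon gamma receptor, stood at 834 and 829 CPM against 238 and 248, and Tnfrsf1b, a receptor of TNF, at 456 and 568 against 91.2 and 127. Of the 20 receptors tested 12 were at least 2-fold above Ly6C-high monocytes in both libraries and 0 below. All genes tested had 12.7% above and 3.39% below. Ccr2, a classical marker, was well above 0 in the members: it stood at 491 and 522 CPM, 1.74-fold and 1.77-fold below the 862 and 931 of Ly6C-high monocytes.

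Fc receptors and lipid handling followed. Fcer1g, the signalling chain shared by activating Fc receptors, stood at 3318 and 2249 CPM, and Tyrobp, the adaptor DAP12, at 2691 and 2367. Cd300e, an activating receptor of monocytes, had 23 and 47 UMIs, or 74.3 CPM (47.1 to 112) and 168 (123 to 223); Ly6C-high monocytes of the control had 1 UMI and those of the DKO library 0, so the DKO level was at least 404-fold higher in the members. Of 19 genes of this list 8 were at least 2-fold above Ly6C-high monocytes in both libraries. All genes tested had 12.7% above and 3.39% below. Apoe, the lipid-carrying apolipoprotein, stood at 3218 CPM (3021 to 3424) in control and 2449 (2269 to 2639.6) in DKO members, against 159 and 269.9 in Ly6C-high monocytes. Cd36, a scavenger receptor, stood at 219.7 and 261 CPM against 7.88 and 9.01. Psap and Ctss, lysosomal genes of lipid and protein breakdown, stood at 2514 and 2124 and at 1512 and 1151 CPM. Against 12.7% of all genes tested, 5 of 22 scavenging and lysosome genes tested were at least 2-fold above Ly6C-high monocytes in both libraries. Of 12 pattern recognition genes 7 were, among them Tlr7, the sensor of single-stranded RNA, at 119.5 and 100.1 CPM against 14.3 and 16.4, and 1 was at least 2-fold below. The other pair of most abundant genes of that list, Unc93b1 and Pycard, stood at 404 and 304 and at 168 and 118 CPM.

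Of 16 genes of Ly6C-high monocytes tested, 5 were at least 2-fold below that class in both libraries and 1, Sirpb1c, above (2.60 and 1.78). All genes tested had 3.39% below and 12.7% above. In the control Lyz1 was above as well (6.17), with most of its UMIs in 3 barcodes. The minimum of 20 UMIs in the members left out 7 of the 23 genes of the list, those lowest in the members, so the count leaves out genes such as Vcan (−3.38 and −3.55), Prtn3 (−5.02 and −5.17) and Mmp8 (−2.67 and −2.10), and also Wfdc21 (0.77 and 0.21). Ly6c2 stood at 304 and 39.3 CPM against 2005 and 1714, and Vcan, a matrix proteoglycan, at 16.2 and 3.58 against 201 and 83.7. Lyz2, the common myeloid lysozyme, stood near the level of Ly6C-high monocytes, at 9160.0 and 6379 CPM against 10939.7 and 9269. Plac8 stood at 3689.9 CPM against 2857 (0.37) in the control and at 1466 against 1656 (−0.17) among DKO cells, and both signs changed under another choice of scaling or of members.

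The members were not alike in genes of antigen presentation. The MHC class II genes H2-Aa, H2-Ab1 and H2-Eb1, added together, had 0 to 2 UMIs in 60 of 79 control members (75.9%) and 48 of 58 DKO members (82.8%), 3 to 9 UMIs in 5 (6.33%) and 4 (6.90%), and 10 or more in 14 (17.7%) and 6 (10.3%). Most of these transcripts sat in few cells: 3 barcodes held 492 of the control UMIs and 3 held 552 of the DKO UMIs. The groups of barcodes are ranges of 1 score chosen after its values were seen, and they are not the study's groups. Their median depth was 3195 UMIs with 0 to 2 and 4809 with 10 or more in the control, and 4292.5 and 7132.5 in the DKO library. The part of depth was not tested. Control members with 10 or more had 10662 CPM of Cd74, the invariant chain that travels with MHC class II, against 284 in those with 0 to 2. They also had more Ccr2 (986 against 361 CPM) and less Itgal (288 against 650), Spn (45.5 against 253) and Cebpb (880 against 1728). In the DKO library Ccr2 stood at 1355 CPM in the high range and 343 in the low range, and Itgal at 561 and 878. The classical marker Ly6c2 did not follow Ccr2 in the control, where it stood at 15.2 CPM in the high and 420 in the low range. Few barcodes carried that level: 7 control members, all of the low range, held 86 Ly6c2 UMIs. DKO members had 117 CPM of Ly6c2 in the high and 18.3 in the low range. Vcan was at 0 in the high range of both libraries, with 22.6 and 4.57 CPM in the low range. Markers of dendritic cells sat in single barcodes of the high ranges: 1 of the 14 control barcodes held all 7 Cd209a UMIs, and 1 of the 6 DKO barcodes held all 12 of Cd209a, all 8 of Flt3 and 14 of the 15 of Clec10a. Cd209a stood at 106 and 280 CPM in the high ranges and at 0 in the low ones, Flt3 at 30.3 and 187 against 4.51 and 0, and Clec10a at 60.7 and 350 against 4.51 and 4.57. The 14 genes of the dendritic list added up to 4247 and 3574 CPM in the high ranges and 3668 and 2583 in the low ones, most of it Cst3, with 7 genes at 0 in each high range (Xcr1, Clec9a, Zbtb46, Ccr7, Fscn1, Siglech and Ccr9) and 8 in each low range. The part of dendritic cells in these ranges was not tested.

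Members were also grouped by Ccr2, which had 0 UMIs in 36 control and 26 DKO members, 1 or 2 in 20 and 13, and 3 or more in 23 and 19. The median depth was 2806 UMIs without Ccr2 and 5060 with 3 or more in the control, and 3638 and 5395 in the DKO library. The part of depth in these ranges was not tested. In the control, the Lyz2 of members with 3 or more stood at 12497 CPM against 5296 in those without, and their Cd74 at 5162 against 846. In the DKO library Lyz2 stood at 9007 against 3678 CPM and Cd74 at 4803 against 299. The sum of neutrophil genes went the other way. In control members the 17 genes of that list added up to 1348 CPM with 3 or more Ccr2 UMIs and 6671 without Ccr2. In DKO members they added up to 628 and 4990. Chil3, a gene of that list, did not follow the sum. Among control members it stood at 430.9 CPM with 3 or more Ccr2 UMIs and 93.96 without Ccr2. Among DKO members it stood at 180.7 and 9.65. S100a9 was the most abundant without Ccr2, at 3451 and 2307 CPM, and 4 control and 6 DKO barcodes rich in neutrophil genes, described below, had no Ccr2. Their part in these values was not tested. Ly6c2 itself had 0 UMIs in 66 control and 52 DKO members and 3 or more in 7 and 1. In the control the median depth was 3195 UMIs without Ly6c2 and 6065 with 3 or more. The members of the Ly6c2 range of 3 or more had 15452 CPM of Lyz2 and 85.1 of Cx3cr1 in the control, against 7382 and 506 in those without Ly6c2. Of these 7 barcodes 3 held 5 or more UMIs of another cell type's genes. Among them were 2 with 39 and 41 UMIs of Ccl5, 1 of these with 6 of Cd3d, and both had 0 of Cx3cr1; another is among the barcodes rich in neutrophil genes. In the 7 together, 9 of 16 T and NK cell genes had a UMI and the list added up to 2469 CPM, led by Ccl5, with Trbc1, Cd4, Gzma, Gzmb, Klrb1c, Ncr1 and Klrk1 at 0, against 13 CPM without Ly6c2. Neutrophil genes, 13 of 17 with a UMI and Ngp, Ly6g, Ctsg and Fcnb at 0, added up to 11834 CPM, led by S100a9, against 2302. The part of these cell types in the range was not tested.

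A smaller set of barcodes carried genes of mature neutrophils. The 5 genes Cxcr2, Csf3r, Retnlg, Mmp9 and Il1r2, chosen after their values were seen, reached 10 or more UMIs together in 5 of 79 control members (6.33%) and 7 of 58 DKO members (12.1%). All 10 control and all 48 DKO UMIs of Cxcr2, a receptor that draws neutrophils out of the marrow, came from these barcodes, which it helped to define. Their median mitochondrial share was 0.320% for control and 0.179% for DKO, against 1.61% and 1.70% in the other members, and the neutrophil genes of the rule's limit took a median of 2.30% and 0.770% of their UMIs. In the 7 DKO barcodes Adgre4 stood at 335 CPM against 1096 in the other members and Ace at 37.2 (1 UMI) against 396, while Treml4 stood at 484 against 225 and Nr4a1 at 409 against 384; these 4 genes chose the members. Outside the rule, Cx3cr1 stood at 74.4 CPM in the 7 against 534 in the other DKO members, Csf1r at 260 against 522, Itgal at 260 against 878, Lyz2 at 1042 against 6946 and Gngt2 at 1116 against 839. In the 5 control barcodes Cx3cr1 stood at 282 against 437, Csf1r at 423 against 527, Itgal at 846 against 552, Lyz2 at 3386 against 9586 and Gngt2 at 705 against 1110. Whether they are single cells or droplets with more than 1 cell was not tested.

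**Figure D2:**
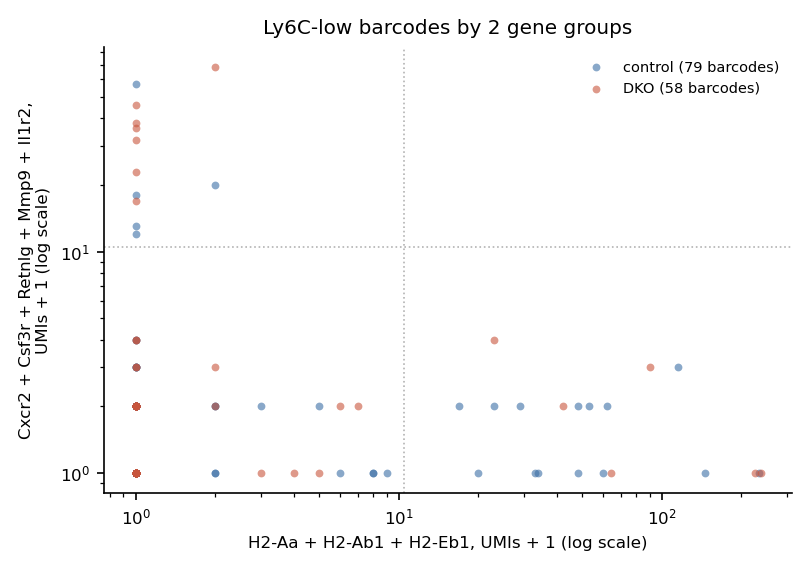
Each point is a member barcode, 79 control in blue and 58 DKO in red, placed by its UMIs of 3 MHC class II genes and of 5 neutrophil genes, each with 1 added and on log axes; many barcodes lie on each other at the lower left, and the dotted lines set off 10 or more UMIs. The 14 control and 6 DKO barcodes rich in MHC class II and the 5 and 7 rich in neutrophil genes are different barcodes, since no point lies past both lines.

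The comparison of the genotypes begins with the targeted genes. Ddx41 had 12 UMIs in control members, or 38.8 CPM (20 to 67.7), in 11 of 79 barcodes, and 0 UMIs in DKO members, a level at least 3.61-fold lower against a floor of 3 UMIs. After thinning a Ddx41 UMI was seen in 5 of 73 control members (6.85%, 2.26% to 15.3%) and 0 of 56 DKO members (0 to 6.38%). These shares set no limit on the cells that express the gene. In the better covered Ly6C-high monocytes it stood at 40 CPM in the control and at 19.7 among DKO cells (ratio −1.02). B cells had 40 and 19.4 CPM. Cgas had 5 and 6 UMIs, or 16.2 CPM (5.25 to 37.7) and 21.5 (7.87 to 46.7), a ratio of 0.37 (−1.57 to 2.46). A difference in Cgas was not detectable at this depth. In Ly6C-high monocytes it stood at 38.9 and 28.7 CPM (−0.43, −0.68 to −0.20), seen after thinning in 5.74% and 5.28% of barcodes, and B cells had 4.63 and 1.93 CPM. No file gives the deleted segments, and a 3' tag outside them checks nothing, so neither gene was used to check the genotype.

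In the members, 269 of the 4724 genes tested (5.69%) were at least 2-fold higher in the DKO library and 162 (3.43%) at least 2-fold lower, with a median ratio of 0.08 over all of them. The surplus of higher genes depends on the scaling: of the genes past 2-fold 62.4% were higher with totals of UMIs, and with a median-ratio size factor 218 genes were higher and 214 lower (50.5%). The same genes had a median of 0.13 in Ly6C-high monocytes and 0.10 in B cells. Ratios moved with transcript length. In the members the medians were −0.19, 0.15 and 0.31 over the genes with the shortest, middle and longest transcripts (3 equal groups, bounded at 2745 and 4652 bases), and in Ly6C-high monocytes −0.13, 0.15 and 0.30. The part of transcript length, and of depth, in single genes was not tested.

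The 30 patrolling genes outside the rule had a median DKO over control ratio of 0.18, with 1 at least 2-fold higher (Cd300e, 1.15, interval 0.43 to 1.96) and 1 at least 2-fold lower (Fabp4, −1.02, −1.54 to −0.55; −0.61 in Ly6C-high monocytes and −1.73 in B cells, where it was seen after thinning in 4.65% of control and 1.79% of DKO barcodes). The remaining 28 lay within 2-fold. All genes tested had 5.69% higher and 3.43% lower. Fcgr4 had −0.56 (−1.03 to −0.11), Gngt2 −0.32 (−0.57 to −0.08), Itgal 0.52 (0.23 to 0.81), Dusp16 0.87 (0.47 to 1.30) and Dusp5 0.80 (0.17 to 1.48). Pparg, which stands outside the list, had 0.61 (0.20 to 1.04). Cx3cr1 had 0.20 (−0.16 to 0.56), Spn 0.15 (−0.39 to 0.68) and Ear2 −0.16 (−0.53 to 0.20), intervals that include 0.

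Genes of Ly6C-high monocytes had a median DKO over control ratio of −0.45 over 16 genes in the members, 3 above 0 and 13 below. Of the 16 genes 6 were at least 2-fold lower and 1 higher, against 3.43% and 5.69% of all genes tested. An interval below 0 was found for 9 of the 16 and above 0 for 1. The same genes had medians of −0.19 in Ly6C-high monocytes and −0.65 in B cells. Ly6c2 had 94 UMIs in control members, 53 of them in 3 barcodes, and 11 in DKO members (−2.84, −4.00 to −2.04); its ratio in Ly6C-high monocytes was −0.23. Chil3, a chitinase-like protein of myeloid precursors, had 97 and 33 UMIs (−1.38) and was lower in Ly6C-high monocytes as well (−2.0). Plac8 had 1142 and 410 UMIs (−1.33, −1.50 to −1.17, and −0.79 in Ly6C-high monocytes). Hp, which encodes haptoglobin, had 116 and 45 UMIs (−1.20), and Ms4a4c 67 and 25 (−1.24). Fn1, the gene of fibronectin, went the other way with 24 and 52 UMIs (1.23, 0.54 to 2.02). Lyz1, a lysozyme paralog of Lyz2 whose reads can be hard to assign, had 74 and 1 UMIs (−5.08, −11.39 to −3.54), 56 of the 74 in 3 control barcodes.

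Transcription factors had a median of 0.38 over 24 genes. At least 2-fold higher was 1 and lower 0, against 5.69% and 3.43% of all genes tested. Cebpb had 0.58 (0.40 to 0.75) and Zeb2 0.41 (0.25 to 0.57); the control intervals of both levels lie below the DKO intervals. Klf2 had −0.04 (−0.31 to 0.22). Rbpj, the DNA-binding partner of Notch, had 18 and 36 UMIs (1.11, 0.29 to 2.05). In Ly6C-high monocytes the median of these factors was 0.25.

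Receptors for growth factors and chemokines had a median of 0.29 over 20 genes, near the 0.34 of Ly6C-high monocytes. Of these 2 were at least 2-fold higher, Cxcr4 and Cxcr2, and 0 lower, against 5.69% and 3.43% of all genes tested. Cxcr4, the receptor for Cxcl12 that holds cells in the marrow, had 32 UMIs in control members, or 103 CPM (70.7 to 146), and 118 in DKO members, or 422 (349 to 505), a ratio of 2.0 (1.45 to 2.64). After thinning it was seen in 20.5% of control and 53.6% of DKO members, and unthinned in 29.1% and 75.9%. It was higher in the DKO library in the other classes too: at 139 and 240.5 CPM in Ly6C-high monocytes (0.79) and at 141 and 277 CPM in B cells. The 48 DKO UMIs of Cxcr2 (2.30, 1.41 to 3.56) all sat in the barcodes rich in neutrophil genes, which Cxcr2 helped to define. Csf1r had −0.06 (−0.40 to 0.27) and Ccr2 0.09 (−0.25 to 0.43). Adhesion genes had a median of 0.21 over 20 genes, with 0 past 2-fold in either direction.

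Fc receptors and their signalling chains had a median of −0.18 over 19 genes, with 1 at least 2-fold higher, Cd300e, and 1 lower, the inhibitory receptor Fcgr2b with 66 and 29 UMIs (−1.01, −1.72 to −0.39). All genes tested had 5.69% higher and 3.43% lower. Fcer1g had −0.56 (−0.71 to −0.42), and Lyn, a kinase of both activating and inhibitory signals, 0.24 (0.04 to 0.45). Pattern recognition genes had a median of −0.25 over 12, with 0 higher and 1 lower, Clec4n, the receptor dectin-2, with 19 and 6 UMIs (−1.37).

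Scavenging and lysosome genes had a median of −0.03 over 22. At least 2-fold higher were 3 and lower 0, against 5.69% and 3.43% of all genes tested. Abca1, the exporter of cholesterol to lipid-poor apolipoproteins, had 5 UMIs in 4 control barcodes and 31 in 19 DKO barcodes (2.56, 1.40 to 4.50). Abcg1, which exports cholesterol to larger particles, had 32 and 61 UMIs (1.06, 0.44 to 1.74). Lpl, the lipase of circulating triglycerides, had 14 and 37 UMIs, 16 of the 37 in 1 barcode (1.49, 0.63 to 2.55). In Ly6C-high monocytes the 3 had 0.65, 0.44 and 0.47. Apoe had −0.39 (−0.54 to −0.25) in the members and 0.77 in Ly6C-high monocytes.

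MHC class II genes had a median of −0.18 over 7, with 0 past 2-fold, against 0.46 in Ly6C-high monocytes. A few barcodes hold most of these transcripts. With at least 4 marker UMIs from 3 genes required, the median was −2.47, and the cause was not tested. Cd74 had 818 and 615 UMIs (−0.26, −0.42 to −0.11). MHC class I genes had a median of −0.15 over 18, with 0 higher and 1 lower (5.69% and 3.43% of all genes tested). B2m, the light chain they share, had −0.17 (−0.33 to −0.01), H2-D1 −0.08 (−0.26 to 0.10) and H2-K1 −0.03 (−0.21 to 0.16). The sign of B2m changed with at least 4 marker UMIs from 3 genes (0.0225). Without the highest barcode of each library its interval included 0 (−0.306 to 0.018). H2-Q7, a class Ib gene of the Qa-2 family, had 54 and 13 UMIs (−1.83, −2.91 to −1.02), with −1.57 in Ly6C-high monocytes. As a gene with close paralogs its counts are uncertain, and a difference between the mice in this region of the genome was not tested.

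Interferon-stimulated genes had a median of −0.08 over 37 genes in the members, 17 above 0 and 20 below. At least 2-fold higher were 2 and lower 3, against 5.69% and 3.43% of all genes tested. The list added up to 11086 CPM in control and 8788 in DKO members. The same genes had a median of −0.42 in Ly6C-high monocytes. Ifi27l2a, a small interferon-induced membrane protein, had 497 UMIs in control members, or 1606 CPM (1468 to 1753), and 106 in DKO members, or 379 (310.3 to 458), a ratio of −2.07 (−2.40 to −1.78). After thinning it was seen in 67.1% of control and 30.4% of DKO members, and in 41% and 19.6% of B cells. Its ratio in Ly6C-high monocytes was −1.35. Bst2, the tetherin that holds virions at the cell surface, had 51 and 13 UMIs (−1.75, −2.83 to −0.93), and Ifitm1 39 and 7 (−2.18), 23 of the 39 in 1 barcode. The most abundant genes of the list by UMIs included Ifitm3, at 2578 and 1916 CPM (−0.43, −0.59 to −0.27), and Ly6e, at 1354 and 887 (−0.61, −0.84 to −0.38). Ifit3 and Ifi47 were higher on few molecules: Ifit3 had 6 and 17 UMIs (1.51), 11 of the 17 in 1 of 2 DKO barcodes, which is rich in neutrophil genes, and Ifi47 had 5 and 15 (1.56). Without the highest barcode of each library the ratios were 0.94 (−1.09 to 3.76) and 1.40 (−0.16 to 3.70). Genes of the cGAS-STING pathway had a median of 0.46 over 9, with 1 higher and 0 lower, against 0.22 in Ly6C-high monocytes. Samhd1, a dNTPase that restrains DNA sensing, had 255 and 317 UMIs (0.46, 0.22 to 0.70), and Tbk1, the kinase downstream of STING, 9 and 18 (1.07, −0.08 to 2.48).

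**Figure D3:**
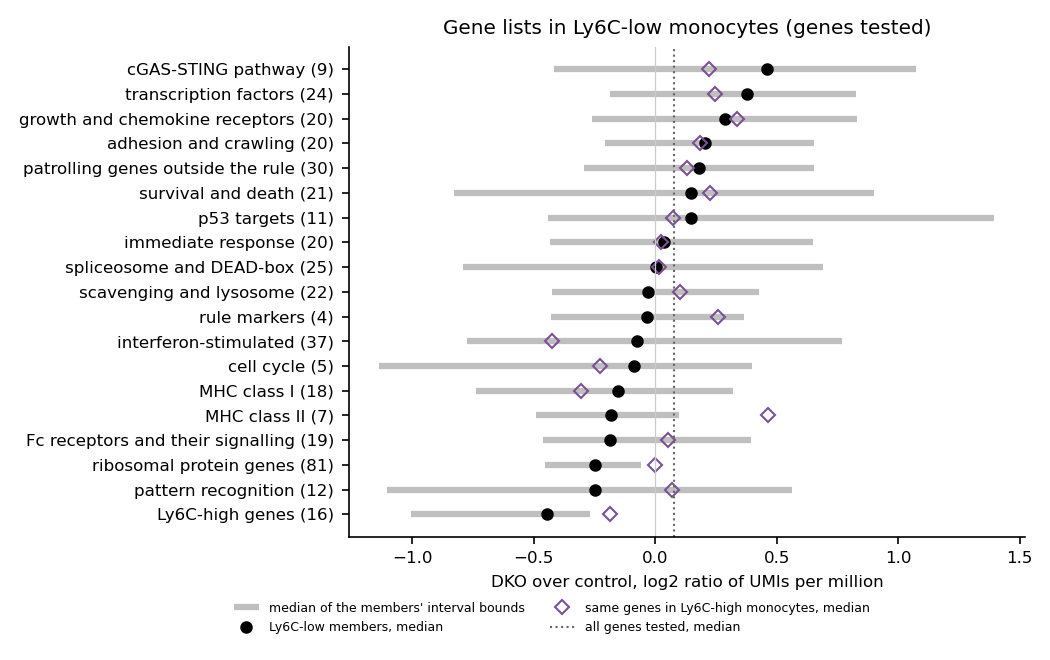
Median DKO over control log2 ratio of each gene list in the members, the lists of other cell types left out (black circles; genes tested in parentheses), with the medians of the genes' 95% interval bounds as grey bars, the same genes in Ly6C-high monocytes as open diamonds and the median of all 4724 genes (0.08) as a dotted line. Of the lists drawn, Ly6C-high genes (−0.45) stand lowest and the cGAS-STING pathway (0.46) highest; the medians of the immediate response (0.03) and spliceosome (0.00) lists change sign with the scaling.

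The medians of the rule markers, Fc receptors, scavenging, interferon-stimulated, p53 and cell cycle lists changed sign under at least 1 other choice of cells or of the minimum of UMIs, and the other lists past those with a scaling change kept 1 sign.

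Immediate response genes had a median of 0.03 over 20, and the sign of this median changes with the scaling. At least 2-fold higher were 2 and lower 0, against 5.69% and 3.43% of all genes tested. Btg1, an antiproliferative gene, was the most abundant by UMIs, at 737 and 1073 CPM (0.54, 0.29 to 0.80), and Btg2 stood at 439 and 418 (−0.07). Fosl2, a subunit of AP-1, had 10 and 33 UMIs (1.77, 0.81 to 3.05). The chaperone gene Hspa1b had 1 and 19 UMIs (3.47, 1.74 to 9.77). Its neighbour Hspa1a, named after its values were seen, had 0 and 16, at least 5.90-fold higher in the DKO library. Both had positive ratios in Ly6C-high monocytes, 2.11 and 1.78.

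Survival and death genes had a median of 0.15 over 21, with 0 past 2-fold. Mcl1, an anti-apoptotic gene of the Bcl2 family, had 152 and 198 UMIs (0.53, 0.22 to 0.84), Bcl2 87 and 83 (0.08, −0.37 to 0.53) and Xiap, an inhibitor of caspases, 72 and 90 (0.46). Targets of p53 had a median of 0.15 over 11. At least 2-fold higher were 2 and lower 0, against 5.69% and 3.43% of all genes tested. Mdm2, the ubiquitin ligase of p53, had 13 UMIs in 12 control barcodes and 42 in 29 DKO barcodes (1.77, 0.91 to 2.86), and Sesn1, a stress-induced regulator of growth, 8 and 22 UMIs (1.5, 0.38 to 2.98). In Ly6C-high monocytes they had 0.27 and 0.24. After thinning Mdm2 was seen in 9.59% of control and 19.6% of DKO members and in 10.8% and 13.3% of B cells. Rps27l had −0.53 (−1.10 to 0.01). The cell cycle list had a median of −0.09 over 5 genes. Spliceosome and DEAD-box genes, the functional neighbours of Ddx41, had a median of 0.00 over 25, with 0 past 2-fold, and its sign changes with the scaling. Their most abundant genes by UMIs, Ddx5 and Srsf5, stood at 643 and 543 CPM (−0.24, −0.56 to 0.07) and at 404 and 282 (−0.51, −0.94 to −0.10).

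Ribosomal protein genes had a median of −0.25 over 81, with 9 genes above 0 and 72 below, against 0.00 in Ly6C-high monocytes and −0.23 in B cells. Together they stood at 152810 CPM in control and 131267 in DKO members. Fau, the most abundant by UMIs, had −0.16 (−0.26 to −0.05), Rps24 −0.22 (−0.34 to −0.10) and Rps27a −0.16 (−0.29 to −0.04). None was at least 2-fold higher and 1 at least 2-fold lower, against 5.69% and 3.43% of all genes tested.

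The largest differences of single genes at 100 CPM or more in a library were partly the work of few barcodes. Inpp4b, a phosphatase of phosphoinositides, had 20 and 175 UMIs (3.21, 2.60 to 4.02), but 131 of the 175 came from 1 barcode; without the highest barcode of each library its ratio was 1.58 (0.78 to 2.56). Cd101 had 4 and 30 UMIs (2.78), 26 of the 30 in the barcodes rich in neutrophil genes, and Il1r2, a decoy receptor for interleukin-1, had 8 and 34 (2.11), all 34 in those barcodes, which Il1r2 helped to define. Antxr2, a receptor of anthrax toxin, had 12 and 63 UMIs (2.45), 49 of them there. Differences spread over many barcodes were those of Cxcr4, in 23 control and 44 DKO barcodes, Pde3b, a phosphodiesterase, with 20 and 90 UMIs in 16 and 32 (2.26, 1.60 to 3.09), Ccpg1, a receptor for the turnover of endoplasmic reticulum, with 16 and 61 in 13 and 35 (2.01, 1.26 to 2.97), and Sos1, an activator of Ras, with 7 and 28 in 7 and 22 (2.0, 0.92 to 3.59). In Ly6C-high monocytes Pde3b had 0.60, Ccpg1 0.37 and Sos1 0.42.

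Among the genes lower in the DKO library, Ccl5, a chemokine of T and NK cells, had 83 and 2 UMIs (−4.66, −8.30 to −3.33), 82 of the 83 in 3 control barcodes. Ly6i, a relative of Ly6c2, had 55 and 6 UMIs (−2.85, −4.56 to −1.84) in 21 and 6 barcodes, 27 of the 55 in 1 of them. Cstb, an inhibitor of lysosomal cathepsins, had 42 and 8 UMIs in 26 and 8 barcodes (−2.11, −3.55 to −1.14). Ifi27l2a, Ifitm1, H2-Q7, Ly6c2 and Lyz1 complete the 8 described. Of these 8, Ifi27l2a, Ifitm1 and H2-Q7 were also at least 2-fold lower in Ly6C-high monocytes.

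**Figure D4:**
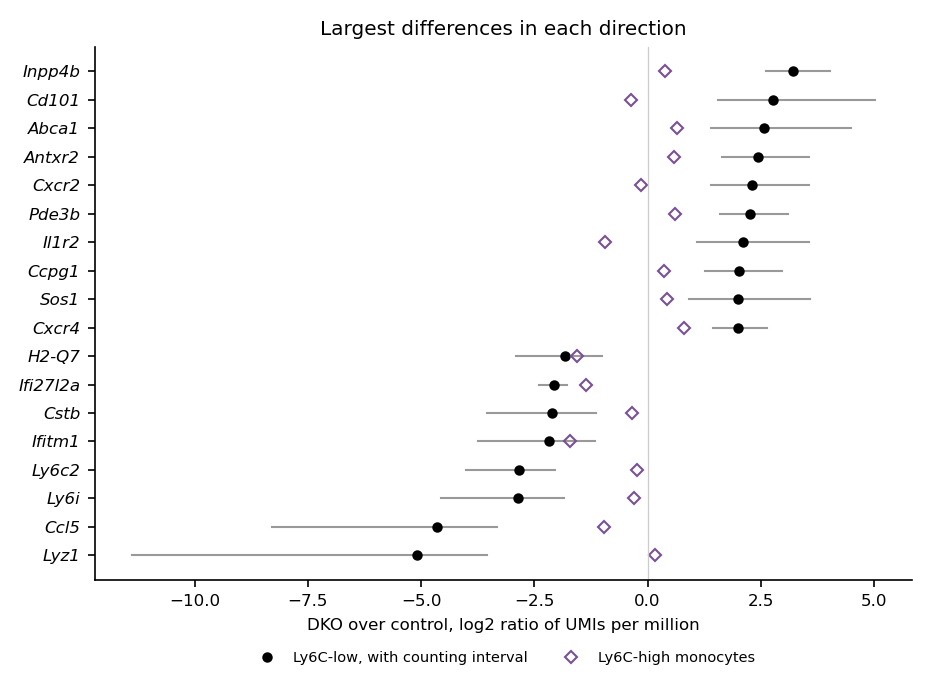
DKO over control log2 ratio of the 10 genes with the largest increase and 8 of the 10 with the largest decrease in the members (black circles with 95% counting intervals), among genes at 100 CPM or more in a library, with Ly6C-high monocytes as open diamonds. H2-Q7 (−1.83 and −1.57) and Ifi27l2a (−2.07 and −1.35) stand on the same side in both classes, while Il1r2 (2.11 and −0.94) does not, and Lyz1 (−5.08 and 0.15) is nearly level in Ly6C-high monocytes. All DKO UMIs of Il1r2 in the members came from the barcodes rich in neutrophil genes, and 3 control barcodes held 56 UMIs of Lyz1.

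Genes of other cell types were counted by list. Beside these counts, 5.69% of all genes tested were at least 2-fold higher in DKO members and 3.43% lower. Erythroid genes added up to 5166 CPM in control and 2935 in DKO members, against 286110 and 364916 over all barcodes kept; the 5 tested had a median of −0.88, with 1 at least 2-fold lower, and the most abundant, Hbb-bs, stood at 2627 and 1427 CPM. All barcodes together moved the opposite way, with hemoglobin at 28.3% of control UMIs and 36.1% of DKO UMIs. Neutrophil genes added up to 3680.2 and 2331 CPM, against 65058 and 55231 over all barcodes, with a median of −0.66 over 8 tested, 1 higher (Mmp9, 15 and 35 UMIs) and 3 lower (Chil3, Ltf and Lcn2); S100a9 was the most abundant, at 1764 and 1008 CPM. B and plasma cell genes added up to 355 and 339.7 CPM with 2 tested (median −0.05); Ighm, the most abundant, had 64 UMIs in each library, or 207 and 229 CPM against 332 and 519 over all barcodes. Of 15 genes of that list 8 had no UMI in control members and 7 none in DKO members. T and NK cell genes added up to 394 and 21.5 CPM, against 368 and 195 over all barcodes, with Ccl5 the 1 gene tested and 6 and 13 of 16 at 0.

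Macrophage genes added up to 494 and 543 CPM, against 339 and 211 over all barcodes, with a median of 0.53 over 3 tested and 1 higher, the iron exporter Slc40a1 (5 and 16 UMIs, 1.65, 0.31 to 3.63). All 16 of its DKO UMIs came from the barcodes rich in neutrophil genes. The most abundant gene of that list was Adgre1, which encodes F4/80, at 239 and 347 CPM. Dendritic cell genes added up to 3880.5 and 2825 CPM, against 1015 and 593 over all barcodes, nearly all of it Cst3, an inhibitor of cathepsins that monocytes also express, at 3354 and 2345 CPM; the median over 5 tested was −0.52, with 1 higher (Clec10a, 14 of its 16 DKO UMIs in 1 barcode) and 1 lower (Bst2). Genes of megakaryocytes added up to 100.2 and 10.7 CPM, of basophils and eosinophils to 6.46 and 7.15, and of stromal and endothelial cells to 61.4 and 35.8, with 0 tested in each. Members holding 5 or more UMIs of another type's genes numbered 9 in each library. The part of these transcripts, whether from free RNA or from a second cell in the droplet, in the differences between the libraries was not tested.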

How the data were processed

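Femoral bone marrow of the control and the DKO genotype was measured, 1 library each. Per the submitters' notes and file headers, the authors ran Cell Ranger 7.1.0 against mm10 and deposited a UMI count matrix per library, 32285 genes in each. The control matrix holds 135693452 UMIs and the DKO matrix 117725934.

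Barcodes, classes, levels, ratios and intervals were computed from these counts with Python 3.11.15, numpy 2.4.6, scipy 1.17.1, pandas 2.3.3 and scanpy 1.11.5 (which holds Scrublet), and plots with matplotlib 3.10.9. Levels have exact Poisson intervals, shares Clopper-Pearson intervals and ratios conditional binomial intervals, all at 95%; they rest on the depth of the members and cover counting error only. Genes were tested with at least 20 UMIs summed over both libraries' members, and 1 UMI was added to each count for ratios. Against a count of 0 a floor of 3 UMIs was used. Thinning used 2000 UMIs and a fixed seed of 7. B cells had at least 5 UMIs of Cd79a and Cd79b and under 5 of Lyz2. The code was tested on simulated data.

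Gene positions and transcript lengths are from GENCODE M21 on GRCm38, which holds 32158 of the gene IDs. Promoter sequence is from RefSeq on GRCm38.p6.

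The members and the gene lists were chosen with earlier results of these data known. Genes were named by rule: Ddx41 and Cgas; the genes of the rule for members; from each list the 3 with the highest level and those with an absolute log2 ratio of at least 1; the 15 largest and 10 smallest ratios over Ly6C-high monocytes among genes of at least 100 CPM in either class in both libraries; and the 10 largest differences in each direction among genes of at least 100 CPM. The lists of patrolling genes and of Ly6C-high genes could be named in full. A few genes that the rule names are not reported here. Mki67, Hspa1a, the genes given for the ranges of members and the genes of the neutrophil range were named after their values were seen.

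Alternatives changed the UMI, mitochondrial, hemoglobin and marker limits, the scaling, the minimum of UMIs, the UMI added and the members counted. No difference between genotypes was tested.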

Additional observations from a re-analysis of the deposited data

Results flagged for a closer look

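For 7 genes the DKO over control ratio of the Ly6C-low members and that of the Ly6C-high monocytes had opposite signs, with counting intervals on opposite sides of 0; in each case the difference was not tested. Apoe, which loads lipid onto lipoproteins, had −0.39 in the members and 0.77 in Ly6C-high monocytes. Lilrb4a, an inhibitory receptor of myeloid cells, had −0.98 and 0.37. The interferon-stimulated genes Ifit3 and Ifi47 had 1.51 and 1.56 in the members and −0.78 and −0.61 in Ly6C-high monocytes, and 11 of the 17 DKO UMIs of Ifit3 came from 1 barcode rich in neutrophil genes. Without the highest barcode of each library Ifit3 had 0.94 (−1.09 to 3.76) and Ifi47 1.40 (−0.16 to 3.70), intervals that include 0. Mmp9, a gelatinase of neutrophil granules, had 1.32 and −0.59, with 31 of its 35 DKO UMIs in the barcodes rich in neutrophil genes. Slc40a1 had 1.65 and −0.68, and Il1r2 had 2.11 and −0.94, with all their DKO UMIs in those barcodes; Mmp9 and Il1r2 are among the genes that define them.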

How the results depend on the processing

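No paired analysis was possible because there is 1 library per genotype. Over the alternatives run, 148 DKO over control ratios of named genes stayed within their counting interval 1572 times, moved past it 47 times and, where the reported interval excluded 0, changed sign 8 times. For 191 ratios over Ly6C-high monocytes the numbers were 1770, 131 and 9. Of 23 list medians 15 kept 1 sign in every alternative that gave them a median, which was 8 for the macrophage list and 11 for the others. The medians of 2 lists, immediate response and spliceosome, changed sign under a scaling. A UMI minimum of 1000, a mitochondrial limit of 10% and a hemoglobin limit of 5% changed no member. A minimum of 2000 UMIs left 73 control and 56 DKO members, and leaving out the top 5% of Scrublet scores left 78 and 56. For each value below the cause was not tested, except that fewer genes or cells were counted where said.

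With at least 4 marker UMIs from 3 genes, which left 49 and 38 members, the shares of barcodes were 0.248% and 0.273% and those of both monocyte classes 4.85% and 7.14% in control and DKO. Then 177 genes were at least 2-fold higher, the MHC class II median was −2.47 and the dendritic median −0.67. The DKO over control ratios of Tyrobp (0.0139), B2m (0.0225) and Slc40a1 (−0.21) changed sign, as did the DKO ratios over Ly6C-high monocytes of Wfdc17 (−0.41), H2-Aa (−1.39) and H2-Ab1 (−0.70). With the mean of per-cell CPM, the MHC class II median was −0.63 and the DKO over control ratio of S100a8 was 0.43. Over Ly6C-high monocytes, Plac8 in the control had −0.0477, and in the DKO library Ifitm6 had −0.0930 and Wfdc17 −0.29. With no minimum of UMIs 1966 genes were higher and 1182 lower, and with 50 summed UMIs 76 and 44, since more or fewer genes were counted. With the rule applied after thinning the control share of barcodes was 0.309%.

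A pair of alternatives was added after the data were seen. Without members holding 5 or more UMIs of another cell type's genes, which left 70 and 49, the neutrophil median was −1.37. Cxcr2, which helped to choose the members left out, then had −0.83, Slc40a1 −0.83 and Cd101 −1.41 between the genotypes, each with no lower bound and an upper bound above 0, and in the DKO library over Ly6C-high monocytes Plac8 had 0.0184, Wfdc17 −0.33 and Cxcr2 −0.47. Without the highest barcode of each library S100a8 had 0.13.

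Depth limits what can be read: 3 UMIs correspond to 9.69 CPM in control and 10.7 in DKO members, genes under 20 summed UMIs got no 2-fold count, and single barcodes can carry a gene's whole difference.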
